A study of Mus musculus with 8 samples.

Results

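Transcripts of 10 genes of the neural tube and of young neurons, namely Pax6, Sox1, Sox3, Neurog1, Neurog2, Olig2, Tubb3, Elavl3, Stmn2 and Dcx, were followed in tissue of E9.5 mouse embryos dissected as the posterior second heart field (pSHF). The genes were taken by name: every spot other than a control whose gene name in the scanner files was one of the 10 was used, with all probes and in both groups. Of the 10 genes, 9 had a probe under their name, 16 probes among the 41174 of the array, and Sox3 had none. The 2 groups were 4 samples heterozygous for a mutant Tbx5 allele (written Tbx5-/+ in the labels and Tbx5+/- here) and 4 wild-type samples. Per the labels the Tbx5 line was kept on a mixed background, dams received gonadotropins before mating, and each sample was an independent pool of RNA from a number of embryos not given there. The pools were numbered 1, 5, 6 and 7 in both groups, and each was hybridized as Cy3-labelled cRNA to 1 one-colour Agilent whole mouse genome array with 60-base probes. In the dissection the neural tube was cut away from the thoracic piece through the foregut before the pSHF was separated from the anterior field.

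The neural tube lies next to the mesenchyme from which the pSHF is dissected. Its dividing progenitors carry Sox factors such as Sox1, Sox2 and Sox3, and are given their position by factors such as Pax6 and Olig2. The proneural factors Neurog1 and Neurog2 lead progenitors out of division. Young neurons then make the neuronal beta-tubulin Tubb3, the microtubule regulators Stmn2 and Dcx, and the RNA-binding protein Elavl3. These genes are widely used as markers of neural tissue, and they are given here as their level in every pool and as the difference between the genotypes. In RNA from whole tissue, fewer cells of a type and less RNA per cell cannot be told apart.

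Between 45.0% and 52.8% of the 43379 spots were well above background on the Tbx5+/- arrays, and between 50.9% and 63.6% on the wild-type arrays. Values below are log2 signals after variance stabilization (VSN), and differences are Tbx5+/- minus wild-type. Testing was limited to the 20028 probes that stood well above background throughout the 4 arrays of one genotype or of both. The median difference over these was -0.19, which is the general shift of the arrays, and it depended on the scaling (0.13 with each array centred on its median). Tbx5 itself, the mutated gene, read 9.01, 9.73, 9.16 and 8.62 in Tbx5+/- 1, 5, 6 and 7 and 11.47, 11.56, 10.42 and 11.54 in the wild-type arrays of the same numbers on probe A_52_P523712, a difference of -2.12 with no overlap (limma adjusted p = 0.0921, and 0.0336 with the replicate block, which compares arrays of the same number). Its other probe, A_51_P469338, overlapped (-0.15). Whether either probe lies in the mutated part of the allele is not given in the sources used here. All 12 genes of a pSHF list were tested, and among them Foxf1a (-1.59), Gata4 (-1.37) and Gli1 (-1.13) also had no overlap between groups. None of these was called without the block (limma adjusted p of 0.0959, 0.120 and 0.162), and each was with it. Of all probes 8.98% were lower without overlap and 11.1% were called with the block. These genes were well above background on 3, 2 and 3 of the 4 Tbx5+/- arrays. The differences of Nr2f2 (0.55), Isl1 (0.35), Foxf2 (0.25), Wnt2 (0.060) and Aldh1a2 (0.021) went the other way, with overlap.

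The sequences below are the stretches of RNA that were measured, shown because every value that follows is the signal of one of them. Positions are on mm9 as in the scanner files, which give no exon annotation. For the 6 probes tested, the last 30 of the 60 bases are printed. The Pax6 probe on chr2:105537277-105537336, the Neurog2 probe on chr3:127337805-127337864, the Tubb3 probe on chr8:125945701-125945760 and the Stmn2 probe on chr3:8561261-8561320 lie on the plus strand. The Elavl3 probe on chr9:21822471-21822530 and the Dcx probe on chrX:140290854-140290913 lie on the minus strand.
Pax6 A_51_P489935: ttagatatagctgtattactgttcacagtc
Neurog2 A_51_P370615: cgtttctacatagagatgttaatgtcagtc
Tubb3 A_51_P381381: tatttatggccacccccactccatgtgagt
Elavl3 A_51_P305230: caggtttaaaaatccccaaaacggcaaaaa
Stmn2 A_51_P164998: aatcacaagcactgtggacttttactcaag
Dcx A_52_P244349: acagatactcaggggtttcagctaggctcc
A further Pax6 probe, which was not tested but returns below, covers 873 bases of the plus strand at chr2:105535591-105536463 with 60 bases, so that it joins separate pieces of the genome as a spliced RNA does.
Pax6 A_52_P565559: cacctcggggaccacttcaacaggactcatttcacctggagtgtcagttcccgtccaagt

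The genes fell into those seen on every or nearly every array and those at the background. Pax6, Neurog2, Tubb3, Elavl3, Stmn2 and Dcx each had 1 probe that was tested. A further 4 probes were well above background on some arrays, and 6 were not well above background on any of the 8. Among these 6 was the single Sox1 probe, so that Sox1, a factor of the neural plate and its progenitors, gave only a signal at background, from 5.13 to 6.08. Neurog1 was well above background in wild-type 5 and 7 alone, with values of 5.57 to 5.87 in wild-type and 5.69 to 6.47 in Tbx5+/-. Olig2, the factor of motor neuron progenitors, was at background on A_51_P367451. On its other probe, A_52_P223626, it was well above background in Tbx5+/- 1 and 5 and in wild-type 5 and 7, reading 7.51, 6.42, 7.40 and 6.01 in the Tbx5+/- arrays and 5.74, 6.16, 6.38 and 5.89 in the wild-type arrays. For neither gene could a fold be given.

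None of the 6 probes tested was called, nor was any of the 20028 (0.00% at an adjusted p of 0.05 by limma). Unadjusted p was under 0.05 for 21.9% of all probes and for 0 of the 6. All 6 overlapped between the groups, whereas 9.72% of all probes did not (8.98% lower and 0.744% higher in Tbx5+/-). With the replicate block 11.1% of all probes were called and again 0 of the 6. Without Tbx5+/- 1 it was 19.2% and without wild-type 1 it was 1.05%, in both cases with 0 of the 6. The median difference of the 6 was 0.23, but -0.32 without wild-type 1 and 0.66 without wild-type 5. Relative to the general shift Pax6 lay at 1.07, Neurog2 at 0.71, Stmn2 at 0.49, Dcx at 0.35, Tubb3 at 0.30 and Elavl3 at -0.69. The 95% intervals given below, from the fit without the block, were wide, and each still held a 2-fold change in at least 1 direction. With the block the intervals of Tubb3 (-0.64 to 0.86) and Dcx (-0.31 to 0.64) held none, and those of the other members tested still did.

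Pax6, a paired-homeodomain factor of neural tube, eye and olfactory progenitors, had the largest SD of the members among the Tbx5+/- pools. On A_51_P489935 it read 10.53, 7.34, 7.84 and 7.10 in Tbx5+/- 1, 5, 6 and 7 and 7.50, 8.67, 6.60 and 6.55 in the wild-type arrays of the same numbers. Tbx5+/- 1 stood 1.87 above the next array, wild-type 5, and the other Tbx5+/- arrays lay among the wild-type ones. The group means were 8.20 ± 1.58 (SD, n = 4) and 7.33 ± 0.99 (SD, n = 4), a difference of 0.87 with a standard error of 0.75 and a 95% interval from -0.79 to 2.54 (limma adjusted p = 0.478). That difference came down to 0.098 without Tbx5+/- 1.

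The spliced Pax6 probe gave the same order at its upper end. It was printed on 10 spots of every array, of which 9 or 10 were usable, and before normalization the mean intensity over background of these spots was 732 in Tbx5+/- 1, against 40.8 to 47.2 in the other 3 Tbx5+/- arrays and 49.8 to 118 in wild-type. All 10 spots of Tbx5+/- 1 were well above background, and their coefficient of variation was 6.34%, so the high value was not that of a single spot. After normalization Tbx5+/- 1 read 9.13 and the other 7 arrays 5.65 to 6.67. Across the 8 arrays the signals of the 2 probes had a Pearson's r of 0.955, and of 0.885 over the 7 arrays without Tbx5+/- 1; the probes share arrays, labelling and scaling. The third Pax6 probe, A_52_P469306, was not well above background on any array.

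**Figure D1:**
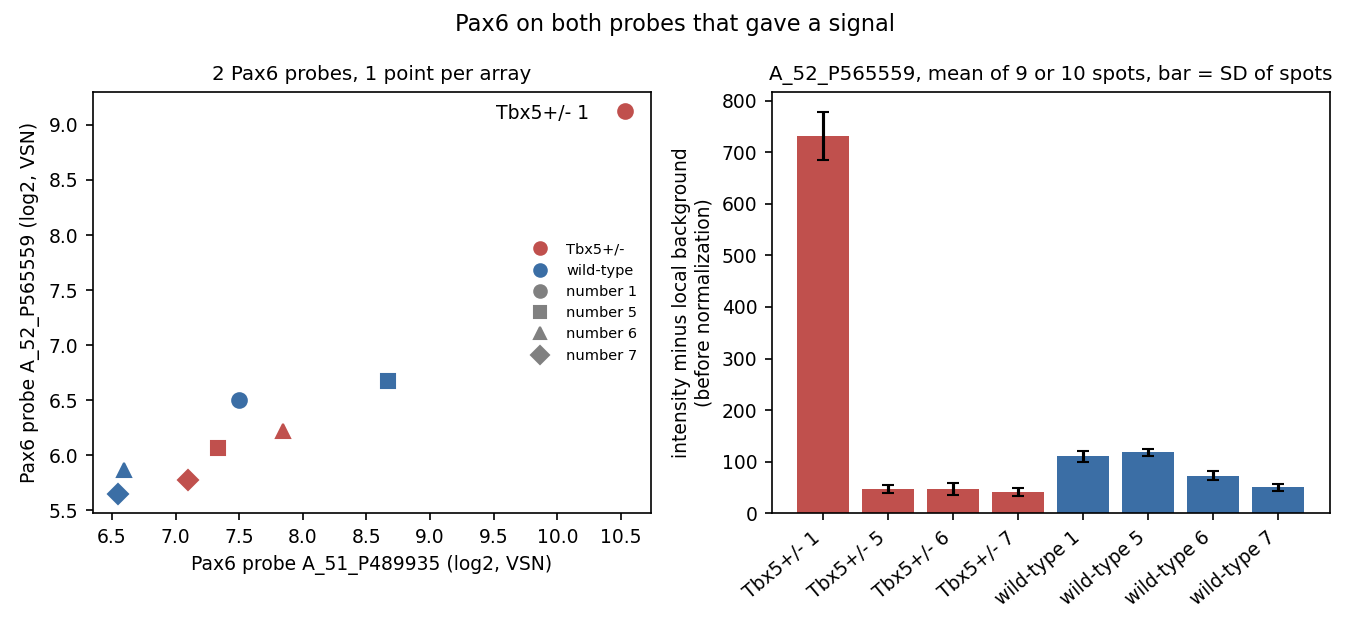
Left, the normalized log2 signal of Pax6 probe A_52_P565559 against that of A_51_P489935, with a point for each of the 8 arrays; right, the intensity over local background of A_52_P565559 before normalization, as the mean of its 9 or 10 spots with the SD of the spots. Tbx5+/- 1 stood apart on both probes, at 10.53 and 9.13, and its bar of 732 lay above the next highest, 118 in wild-type 5.

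Neurog2, the proneural factor that acts downstream of Pax6 in parts of the neural tube, was also highest in Tbx5+/- 1. Its values on A_51_P370615 were 8.73, 8.08, 7.51 and 7.06 in Tbx5+/- and 6.60, 7.69, 8.05 and 6.94 in wild-type. The lowest array was wild-type 1, and the groups overlapped over most of their range. The means were 7.84 ± 0.72 (SD, n = 4) and 7.32 ± 0.66 (SD, n = 4), a difference of 0.52 with an interval from -0.40 to 1.45 (adjusted p = 0.441). Leaving out 1 array at a time moved this difference between 0.23 (without Tbx5+/- 1) and 0.78 (without Tbx5+/- 7). Over the 8 arrays Neurog2 followed Pax6 with an r of 0.61.

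The 4 neuronal genes had another order of arrays. Tubb3, measured on 9 or 10 usable spots per array whose coefficient of variation was 1.20% to 4.27%, read 10.33, 11.62, 11.45 and 11.13 in Tbx5+/- 1, 5, 6 and 7 and 9.28, 12.73, 11.25 and 10.82 in wild-type. Wild-type 5 was the highest array and wild-type 1 the lowest, 11-fold apart within one genotype, and all 4 Tbx5+/- values lay between them. The difference was 0.11 with an interval from -1.27 to 1.49 (adjusted p = 0.924).

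Dcx, which stabilizes microtubules in migrating neurons, read 7.31, 9.66, 9.56 and 8.94 in Tbx5+/- and 6.94, 10.09, 9.06 and 8.74 in wild-type on A_52_P244349. Both arrays numbered 1 lay below all 6 others, and the groups overlapped. The difference was 0.16 (interval from -1.36 to 1.69, adjusted p = 0.898). A second Dcx probe, A_51_P289097, was well above background in wild-type 5 and 7 alone, and A_52_P506493 on no array.

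Stmn2, a tubulin-binding protein of growing axons, read 7.39, 7.85, 8.50 and 7.13 in Tbx5+/- and 5.91, 9.13, 7.85 and 6.79 in wild-type on A_51_P164998. Wild-type 5 was again the highest and wild-type 1 the lowest, the one array where Stmn2 was not well above background. Its difference was 0.30 (interval from -1.07 to 1.66, adjusted p = 0.781). The other Stmn2 probe, A_52_P641991, and the other Elavl3 probe, A_52_P575128, stayed at background on all 8 arrays.

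Elavl3, a neuron-specific RNA-binding protein, read 8.37, 7.84, 7.71 and 7.07 in Tbx5+/- and 5.81, 10.98, 8.72 and 9.02 in wild-type on A_51_P305230. Its value in wild-type 1 was not well above background, so every difference from that array rests on a background signal. Of the wild-type values 3 lay above all Tbx5+/- values and the remaining one, wild-type 1, below them all. The means were 7.75 ± 0.53 (SD, n = 4) and 8.63 ± 2.13 (SD, n = 4), a difference of -0.88 (interval from -2.83 to 1.06, adjusted p = 0.541). Compared within numbers, Tbx5+/- minus wild-type was 2.56 for number 1 and -3.14, -1.0 and -1.95 for numbers 5, 6 and 7. Without both arrays numbered 1, a choice made after these values were seen, Elavl3 was lower by 2.03 in Tbx5+/- (interval from -3.37 to -0.69, n = 3 per group) with no overlap, and its adjusted p of 0.0522 by limma still missed the threshold. Among all probes 15.7% were then called, 39.9% had an unadjusted p under 0.05, and 46.5% did not overlap, with 26.6% lower, so the separation of Elavl3 was one that many probes shared. The other 5 members overlapped there too.

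**Figure D2:**
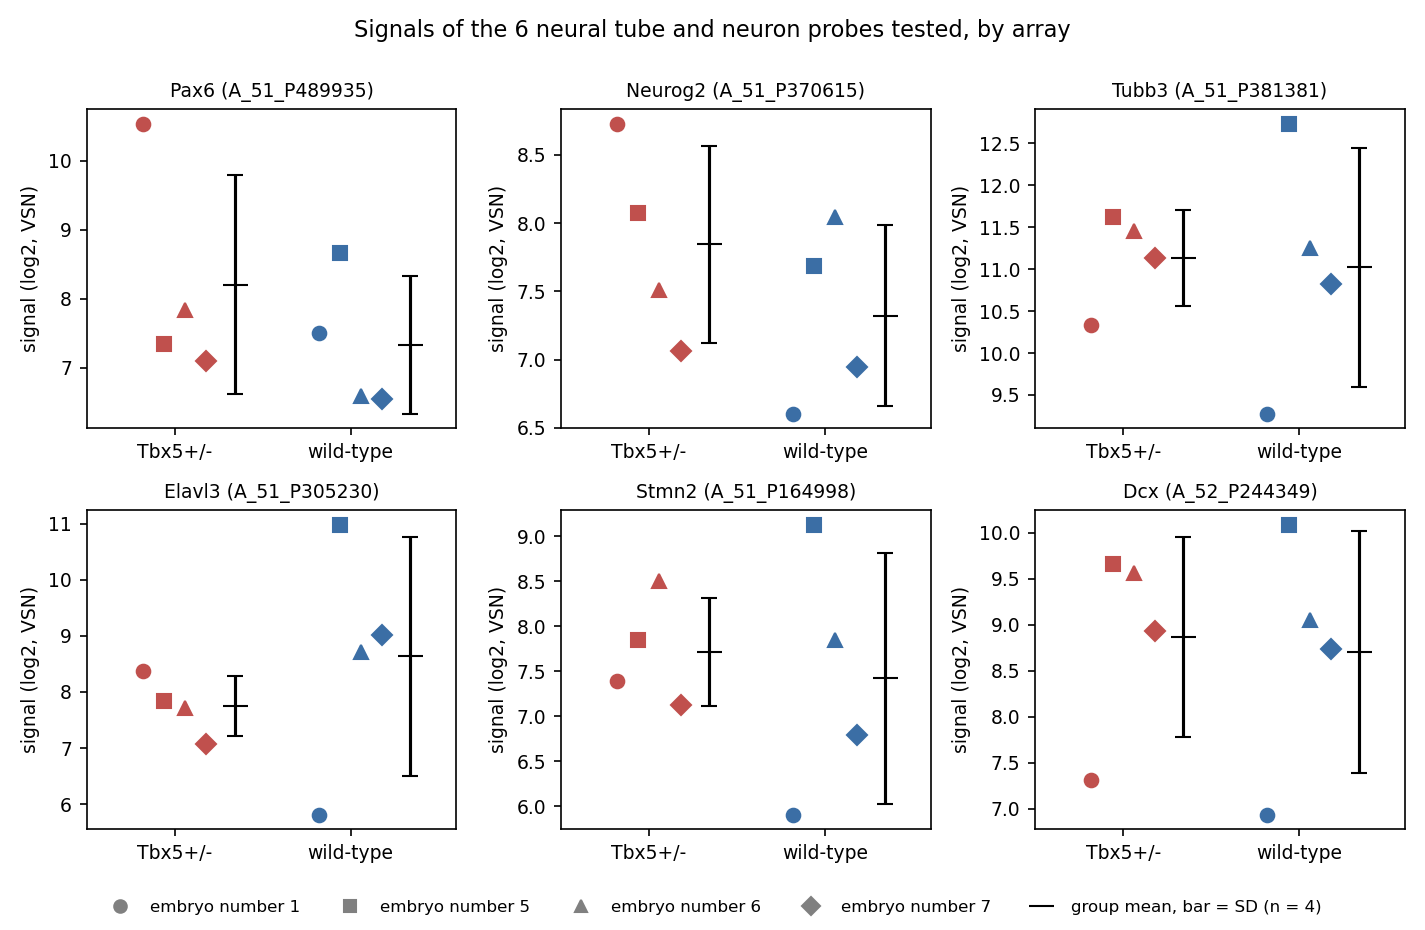
Normalized log2 signal of the 6 probes tested, with a point for each array, a marker shape for each embryo number and the group mean with its SD (n = 4) beside the points; each panel has its own scale. Pax6 and Neurog2 were highest in Tbx5+/- 1, and Tubb3, Elavl3, Stmn2 and Dcx were highest in wild-type 5 and lowest in wild-type 1.

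**Figure D3:**
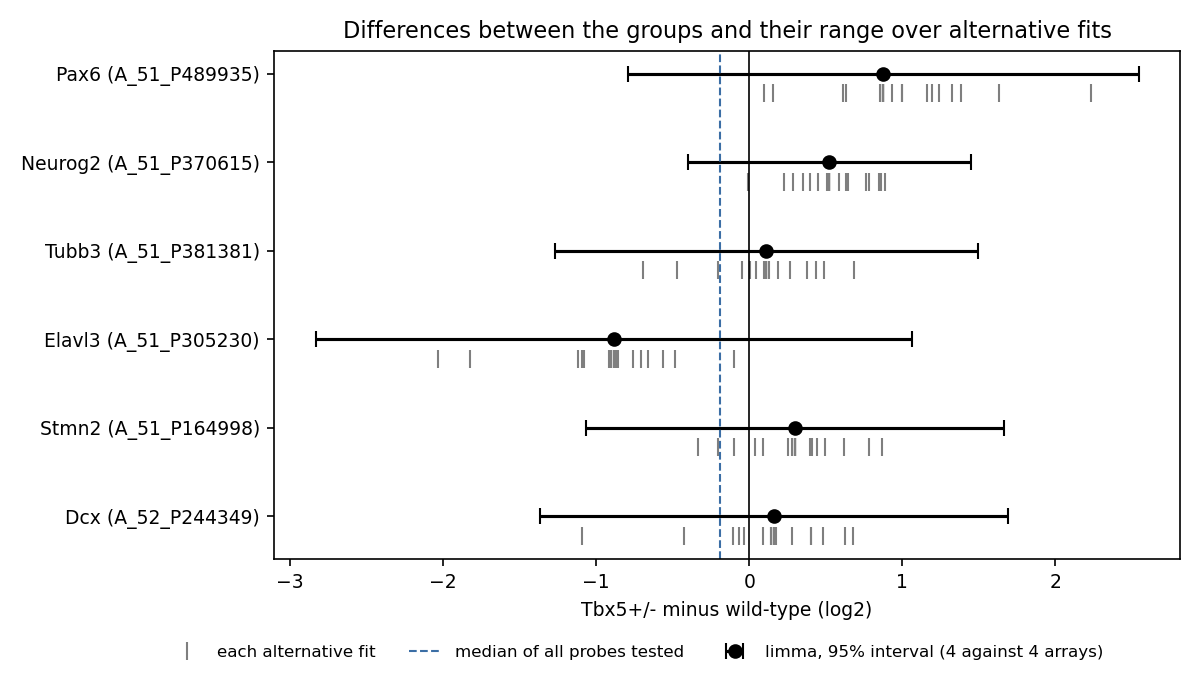
Difference between the groups in log2 for each probe tested, with its 95% interval from limma (4 against 4 arrays), and below it a tick for the value under each alternative fit. Every interval held 0, and the ticks of Neurog2, Tubb3, Stmn2 and Dcx lay on both sides of 0.

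The members varied among pools of one genotype more than most transcripts did. The SD within groups, pooled over the 2 genotypes, was 1.32 for Pax6, 0.69 for Neurog2, 1.08 for Tubb3, 1.55 for Elavl3, 1.07 for Stmn2 and 1.20 for Dcx (for Elavl3 and Stmn2 with a background signal in wild-type 1), against a median of 0.37 over 20021 probes (those tested that no array lacked). Neurog2 was above 88.5% of those probes in this SD, and the other 5 were above 98.2% to 99.8% of them. Wild-type 5 was the highest and wild-type 1 the lowest of the 8 arrays for 4 of the 6 members, all of them the neuronal genes, and for 1.14% of all probes. Tbx5+/- 1 was the highest array for the other two, Pax6 and Neurog2, and for 4.40% of all probes. As a mean over the 6, with each gene set to 0 at its own mean, the arrays lay at 0.28, 0.23, 0.27 and -0.42 in Tbx5+/- 1, 5, 6 and 7 and at -1.49, 1.39, 0.092 and -0.35 in wild-type.

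Across the 8 arrays the 4 neuronal genes followed each other with a Pearson's r from 0.59 (Elavl3 with Dcx) to 0.94 (Tubb3 with Dcx). Pax6 did not follow them, with r from -0.30 to 0.24. These values rest on few arrays that share their labelling and scaling. Without wild-type 1 and wild-type 5, r among the neuronal genes ranged from -0.40 to 0.97: Tubb3 and Dcx still moved together over the 6 arrays left, at 0.97, whereas Elavl3 and Tubb3 were at -0.40.

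Other genes were ranked by how closely their profile followed the mean of the members over the 8 arrays. Stmn3, a stathmin of neurons, came first with an r of 0.97 and read 9.41, 9.83, 9.13 and 8.89 in Tbx5+/- and 6.58, 11.56, 8.77 and 8.60 in wild-type. Scg3, a granin of secretory vesicles, followed at 0.96 with 5.95 in wild-type 1 and 9.98 in wild-type 5. Dclk1 (0.95), a kinase related to Dcx, Brsk2 (0.93), a kinase of neuronal polarity, Gdap1l1 (0.93), 1190002H23Rik (0.93), AK052777 (0.92) and Scrn1 (0.91) completed the 8. None of the 8 was called, with adjusted p by limma from 0.551 to 0.896. Pax6 had other companions, which were looked up after its values were seen: Dtx4 (r of 0.97), Fzd9 (0.91), a Wnt receptor, and Slc32a1 (0.91), the vesicular GABA transporter. Slc32a1 read 11.04 in Tbx5+/- 1 and 7.38 to 8.77 on the other 7 arrays.

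Promoters of Tubb3 and Dcx are shown as the 150 bases before the start of transcription in RefSeq (GRCm38.p6), since this pair of neuronal genes had the highest r both over 8 and over 6 arrays. Capitals mark TATAA, searched on both strands; in both promoters the letters on either strand overlap in TTATAA. The Tubb3 stretch is chr8:123411403-123411552 on the plus strand. The Dcx stretch, the one of its promoters that holds these letters, is chrX:143933220-143933369 on the minus strand.
Tubb3: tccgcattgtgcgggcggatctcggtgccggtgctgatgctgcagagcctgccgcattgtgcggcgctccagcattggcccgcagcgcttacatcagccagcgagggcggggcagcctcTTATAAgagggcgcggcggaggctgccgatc
Dcx: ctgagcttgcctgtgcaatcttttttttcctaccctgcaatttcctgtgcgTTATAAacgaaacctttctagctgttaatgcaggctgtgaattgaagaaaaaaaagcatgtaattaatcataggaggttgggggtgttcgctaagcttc
The RefSeq table holds 10 promoters of 8 members, of which 5 held TATAA on either strand in this window (1 each of Tubb3, Elavl3, Neurog2, Olig2 and Dcx), beside 14.2% of all 32851 promoters. CAGCTG, an E-box of the kind that proneural factors can bind, was in the Elavl3 promoter and in 8.39% of all. A match is a description of these letters only.

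Other genes of neural progenitors and of neurons gave a wider view of the same arrays. Of 35 progenitor and patterning genes, 33 were on the array and 11 were tested, none was called and 0 had an unadjusted p under 0.05. Their median difference was -0.043, and 7 genes of the list, among them Olig1, Gsx2 and Ptf1a, were not well above background on any array. The brightest were Nes, a filament of progenitors (-0.16, adjusted p = 0.753), and Cdh2, the N-cadherin of neural tube and mesenchyme (-0.56, adjusted p = 0.305). In this list 4 genes, chosen after their values were seen, were highest in Tbx5+/- 1, as Pax6 was: Hes5 (13.38 there and 7.38 to 12.93 elsewhere), Sox2 (11.04 and 8.17 to 9.59), Gbx2 (10.64 and 6.78 to 8.37) and Sox21 (9.45 and 6.29 to 8.04). A further 4, Nes, Zic1, Fabp7 and Nkx6-1, were highest in wild-type 5. Zic1, a zinc finger factor of dorsal neural tube and somites, ran from 6.42 in wild-type 1 to 12.61 in wild-type 5.

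Sox2, which marks progenitors of neural tube and of foregut alike, shows how much 1 array decided. Over all 8 arrays its difference was -0.15 (adjusted p = 0.885). Without Tbx5+/- 1 it was -0.81 and passed the threshold (adjusted p = 0.0334), as 19.2% of all probes did.

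Of 58 genes of neuronal differentiation, 29 were tested and 0 called. On the brightest probe of each gene, unadjusted p was under 0.05 for 2 of the 29, both lower. Of all 37 probes tested for these genes it was under 0.05 for 6 as lower and 1 as higher, beside 18.5% and 3.38% of all probes. Their median difference was -0.080. Highest in wild-type 5 were 16 of the 29, beside 15.1% of all probes, and lowest in wild-type 1 were 13, beside 5.06%. Elavl4, Nefl and Nefm, genes of an RNA-binding protein and of 2 neurofilaments, had this order of arrays, with Nefm at 7.32 in wild-type 1 and 13.25 in wild-type 5.

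Only 2 genes of that list had no overlap between the groups, and their order of arrays was not that of the members. Dpysl3, a cytosolic regulator of axon growth that is not limited to neurons, read 12.46, 12.96, 11.40 and 12.07 in Tbx5+/- and 13.51, 14.08, 13.11 and 14.09 in wild-type, a difference of -1.48 (adjusted p = 0.0997). Lhx2, a LIM-homeodomain factor of forebrain and of limb mesenchyme, read 11.39, 11.03, 10.79 and 10.09 against 12.52, 11.69, 11.97 and 12.48, a difference of -1.34 (adjusted p = 0.0964). With the replicate block both passed, at an adjusted p of 0.0336 and 0.0363. Lower without overlap were 8.98% of all probes.

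**Figure D4:**
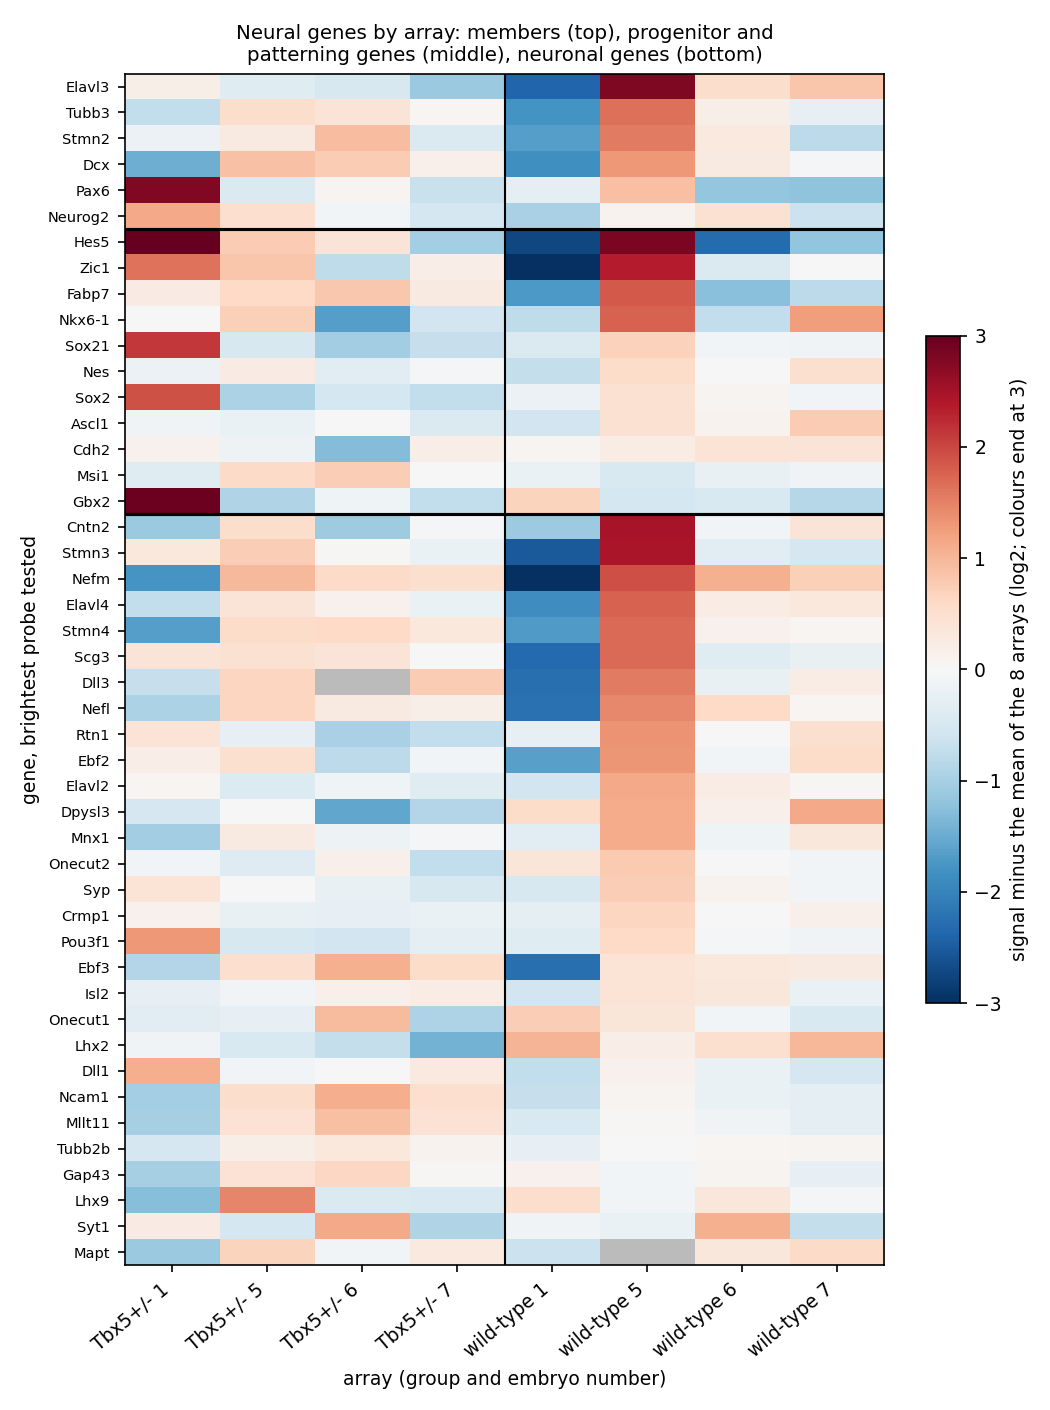
Log2 signal of each gene minus its mean over the 8 arrays, one column per array and one row per gene (brightest probe tested), for the 6 members, the 11 progenitor and patterning genes and the 29 neuronal genes, ordered in each block by the value in wild-type 5; grey marks a value left out. The columns of wild-type 1 and wild-type 5 were opposite for most genes of the upper part of each block. Pax6, Gbx2, Sox21 and Sox2 stood out in Tbx5+/- 1, whereas Hes5 was nearly as high in wild-type 5 (12.93) as there (13.38).

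Markers of other cells that the dissection could hold moved on the same arrays. In the list of neural crest, glia and peripheral ganglia 13 of 23 genes were tested and 0 called, with Snai2 at 0.54 (adjusted p = 0.370) and Ngfr at 0.42 (adjusted p = 0.533), and the mean over the list, set to 0 at each gene's mean, ranged from -0.28 to 0.11 in Tbx5+/- and from -0.19 to 0.24 in wild-type. With the replicate block Twist1 passed as lower (adjusted p = 0.0399). So did 1 probe of Ets1, A_51_P329043 (-1.13, adjusted p = 0.0434), whereas its brightest probe, A_52_P194250, did not (-0.30, adjusted p = 0.290). Somite genes (6 of 10 tested, Pax1 and Tcf15 the brightest) had their lowest mean in wild-type 1, -0.71, and their highest in wild-type 5, 0.80, the same ends as the neuronal genes. Primitive erythrocyte genes (9 of 10 tested), among them the globins Hbb-bh1 and Hba-a1, were at -1.36 in Tbx5+/- 1 and -1.29 in wild-type 1 and at 1.16 and 1.07 in both arrays numbered 5. Liver bud and yolk sac genes (8 of 12 tested) ran from -1.91 in Tbx5+/- 1 to 2.06 in wild-type 1, and of them Trf alone was lower without overlap (-1.81, adjusted p = 0.100, and 0.0347 with the block). Foregut endoderm genes (14 of 14 tested) were highest in wild-type 1 at 0.68, with Sox17 lower in Tbx5+/- without overlap (-1.01, adjusted p = 0.172, and 0.0454 with the block). The pSHF genes were lowest in Tbx5+/- 1 at -0.88, as were the 13 cardiomyocyte genes at -0.84, among which Myl7 and Myh7 were the brightest. The part of these other cells in the values of the members was not tested.

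**Figure D5:**
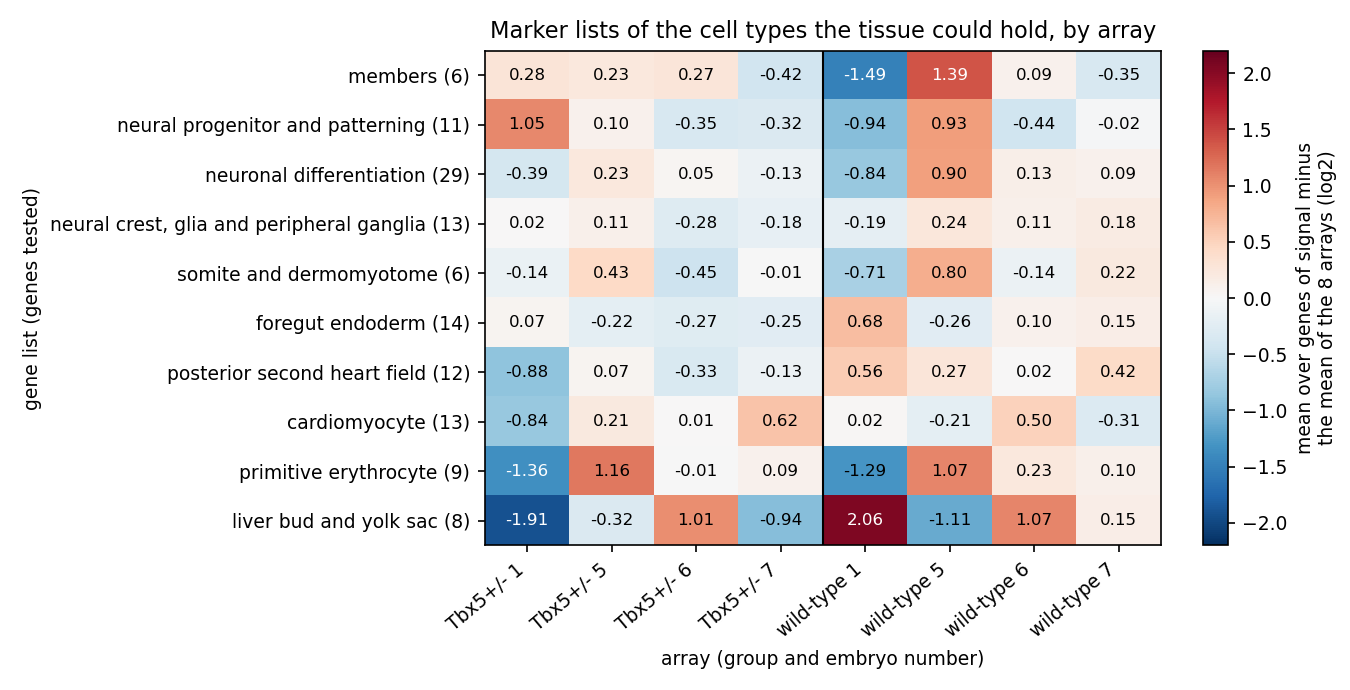
Mean over the genes tested of the log2 signal minus each gene's mean over the 8 arrays, with a row for each gene list (genes tested in parentheses) and a column for each array. Members and neuronal genes were lowest in wild-type 1 (-1.49 and -0.84) and highest in wild-type 5 (1.39 and 0.90), progenitor genes were at 1.05 in Tbx5+/- 1, and erythrocyte genes were at -1.36 and -1.29 in the 2 arrays numbered 1.

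The arrays also differed in the balance of signals along transcripts. Over 4100 genes with probes at least 300 bases apart, the signal of the probe nearer the 3′ end minus that of the probe nearer the 5′ end, set to 0 at each gene's mean, had a median of -0.19, 0.13, 0.33 and 0.21 in Tbx5+/- 1, 5, 6 and 7 and of -0.25, -0.10, -0.015 and -0.11 in wild-type. The 2 arrays numbered 1 were the lowest of their groups. With this gap as a covariate the difference of Pax6 was 2.23 (interval from 0.72 to 3.74, adjusted p = 0.179), and those of Tubb3, Stmn2 and Dcx turned negative (-0.69, -0.33 and -1.09, adjusted p from 0.447 to 0.883). Within the arrays labelled 1, which hold numbers 1 and 5, the difference of Pax6 was 0.85, and within those labelled 2 it was 0.90. The first joined 3.03 for number 1 with -1.33 for number 5, and the second 1.25 for number 6 with 0.55 for number 7. Within labels 1 and 2 the differences of Elavl3 were -0.29 and -1.48, and those of Neurog2 1.26 and -0.21.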

How the data were processed

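RNA of 8 pools was measured. The deposited scanner output holds linear spot intensity from Agilent Feature Extraction 10.5.1.1, with probe positions on mm9. The table the authors deposited holds log2 values normalized by VSN. Here the local background median was subtracted from the mean signal, 1115 outlier spots were left out, repeated spots averaged, and VSN programmed in R 4.3.3 (90% of probes kept in each of 7 iterations), giving r of at least 0.9999 with the deposited values on every array. No spot was saturated. Groups were compared with limma 3.58.1 (two-sided, all 8 arrays, no covariate), with Benjamini-Hochberg adjustment over 20028 probes and a threshold of 0.05. The number of arrays limits the precision, and p-values measure the spread between pools. On simulated data of 20021 probes limma recovered 14.0%, 77.5% and 92.5% of probes changed by 1, 2 and 3 in log2. Its noise was independent between arrays, with SDs drawn from all probes (median 0.37). The members had SDs of 0.69 to 1.55, so these rates do not apply to them. The study's own test, SAM, was not run.

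Same-numbered arrays deviated together (r from 0.14 to 0.59 in each of the 4 pairs, and from -0.60 to 0.37 in the 12 pairs of different numbers, highest for Tbx5+/- 7 with wild-type 6), so the embryo numbers of the labels were taken to pair samples. The array label matched the scan in the headers.

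Members and gene lists were chosen with earlier results of these data known. Named were all members, genes of each list that were called or otherwise up to 4 with the largest difference and no overlap (or the 2 brightest), and the 8 genes most like the members. A gene stood by its brightest probe tested, except that counts of list genes called took a gene through any of its probes. One gene of the progenitor list is not reported here, and counts and means of that list leave it out. All 10 symbols were current in RefSeq, and 8 had a promoter there. Alternatives were other scalings (75th percentile, normexp with offset 50 and quantile, the deposited values, centred arrays), other filters, 1 probe per gene, replicate block, array label, gap covariate, trend and robust variance, and each array left out.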

Additional observations from a re-analysis of the deposited data

Results flagged for a closer look

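In 130 groups of 4 arrays (member probes, other genes named and list means), the highest or lowest array lay beyond Dixon's 95% limit in 7. This share is close to the 5% that chance gives, so the cases below are a description only. The Pax6 probe A_52_P565559 was such a case in Tbx5+/- 1, at 9.13 with the nearest Tbx5+/- array at 6.22 (a gap of 0.868 of the group's range). On the same array this held for Sox2 (11.04, nearest 8.60, ratio 0.852), Dtx4 (9.56, nearest 8.32, ratio 0.924), the globin Hbb-bh1 (15.66, nearest 17.78, ratio 0.863) and the mean of the foregut endoderm genes (0.065, nearest -0.22, ratio 0.845). Scg3 was apart in Tbx5+/- 7 (8.28, nearest 8.68, ratio 0.840) and Tbx5 in wild-type 6 (10.42, nearest 11.47, ratio 0.921). Sox2 and Dtx4 had been named for being high in Tbx5+/- 1, so their place here follows from that choice.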

How the results depend on the processing

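No member probe was called in any of the 22 alternatives, where the adjusted p of the 6 probes ranged from 0.0522 to 0.998. The median difference of the member probes tested, 0.23 in the main fit, ran from -0.51 (gap covariate) to 0.66 (without wild-type 5). The differences of Pax6 and Elavl3 kept their sign in all alternatives run, from 0.098 to 2.23 and from -2.03 to -0.10. Leaving out 1 array at a time gave -0.47 to 0.68 for Tubb3, -0.21 to 0.87 for Stmn2 and -0.43 to 0.68 for Dcx, with 0 to 3840 probes called in all (3840 without Tbx5+/- 1, 211 without wild-type 1), 0 to 1 progenitor genes and 0 to 5 genes each of the neuronal and neural crest lists, the last all without Tbx5+/- 1. With the gap covariate Tubb3 (-0.69), Stmn2 (-0.33) and Dcx (-1.09) reversed. The replicate block gave 2218 probes in all, and through any probe 2 neuronal, 2 neural crest, 7 pSHF, and 1 each of the somite, foregut, cardiomyocyte and liver genes (on the brightest probe 2, 1, 6, 0, 1, 0 and 1), and changed no other call. Added after the data were seen, leaving out both arrays numbered 1 gave 3152 probes, 1 progenitor, 5 neuronal and 4 neural crest genes, and reversed Stmn2 (-0.099), Neurog2 (-0.0099) and Tubb3 (-0.20); leaving out wild-type 1 and 5 reversed Dcx (-0.031). The causes were not tested. The median difference of all probes was -0.19 under VSN, 0.13 with centred arrays, 0.10 after 75th percentile scaling and -0.016 after quantile normalization. Signals of Sox1, Neurog1 and Olig2 near the background limit what can be said of them.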
